A study of Mus musculus and Rattus norvegicus with 32 samples.

Results

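The comparison described here is that of rat liver after 14 days of trichloroethylene (TCE) with rat liver after 14 days of corn oil. Its members are the 8 arrays of the repeated-dose rats, 4 of each treatment, out of 32 arrays in the series, chosen by the labels alone. All 8 came from male SD rats, an outbred laboratory strain, labelled as 10 weeks of age. The TCE rats received 1500 mg per kg body weight by gavage in corn oil once a day, the control rats received the corn oil alone by the same route, and both groups were sampled 18 h after their last dose. The rest of the series holds single-dose rats and B6C3F1 mice on both schedules, each with oil arrays of their own. Their TCE dose was also 1500 mg per kg, and sampling was also 18 h after the last dose. Single-dose rats and mice were labelled as 8 weeks of age and repeated-dose mice as 10 weeks. Schedule and age thus differ together and cannot be told apart. Per its title, the study asked how the species differ. Separate animals are not stated for the 4 samples of a group, and p-values then measure only the spread between samples, which may be technical.

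TCE is a chlorinated solvent that the liver oxidizes, mainly through the cytochrome P450 CYP2E1, to chloral and on to trichloroacetate, while a smaller part is conjugated to glutathione. Trichloroacetate can activate PPARα, the fatty acid-sensing nuclear receptor of hepatocytes, whose known targets include the enzymes of peroxisomal, microsomal and mitochondrial fatty acid oxidation. Reactive metabolites of solvents can also release the transcription factor NRF2 from its inhibitor, and NRF2 drives genes for glutathione synthesis, quinone reduction and NADPH supply.

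Each deposited value of a probe set is divided by that probe set's median over the 4 oil arrays, and all values below are log2 of that ratio, so that 0 is the oil median and 1 is a doubling. The oil arrays enter the median they are divided by, and the TCE arrays do not. The SD of log2 values over all probe sets was 0.56 to 0.64 on oil arrays and 0.85 to 0.99 on TCE arrays. How much of this difference comes from the division was not tested. No signal level can be read from such ratios, so the liver label could not be checked against the level of hepatocyte transcripts. The 8 hepatocyte marker genes (albumin, transthyretin, fibrinogen and others) had a median change of 0.01, and no member passed the test in either direction. Over all genes 2.32% were higher and 0.633% lower, so the lack of calls among 8 genes tells little. The number of arrays limits the precision, and the median SD of a probe set within a group was 0.46.

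Control probe sets for both ends of the Gapdh transcript differed between arrays, and so did those of beta-actin. The Gapdh value at the 3' end minus that at the 5' end, a difference that becomes larger with shortened transcripts, was 0.32, -0.19, -0.13 and 0.48 on oil arrays 1 to 4. It was 0.33, 0.82, 2.07 and 1.60 on TCE arrays 1 to 4. TCE 3 and TCE 4 stood above every oil array by more than 1, and TCE 1 lay within the oil range. The group means were 0.12 ± 0.33 (SD, n = 4) and 1.20 ± 0.78 (SD, n = 4), 1.08 apart (two-sided exact permutation test of the difference, p = 0.0571, with 0.0286 the smallest p that 4 against 4 arrays allow). The beta-actin value was 0.10, 0.68, 1.90 and -0.12 on TCE arrays 1 to 4 and -0.44 to 0.18 on oil arrays (difference 0.70, exact permutation test p = 0.229). Both controls were thus high on TCE 3, and only Gapdh was high on TCE 4. TCE 3 and TCE 4 are called the arrays of high Gapdh value below, and counts without them rest on 2 TCE arrays. Fits without TCE 3 and TCE 4 also left out every other array of the fit with a Gapdh value above 1. Such arrays were found among the single-dose rats and the mice. Schedule and species differences in these fits therefore rest on fewer arrays there too. The adjusted p of the repeated-dose comparison also depends on the single-dose arrays that were kept. The part of transcript shortening in the results below was not tested beyond the fits without these arrays and a fit with the Gapdh value as a covariate.

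**Figure D1:**
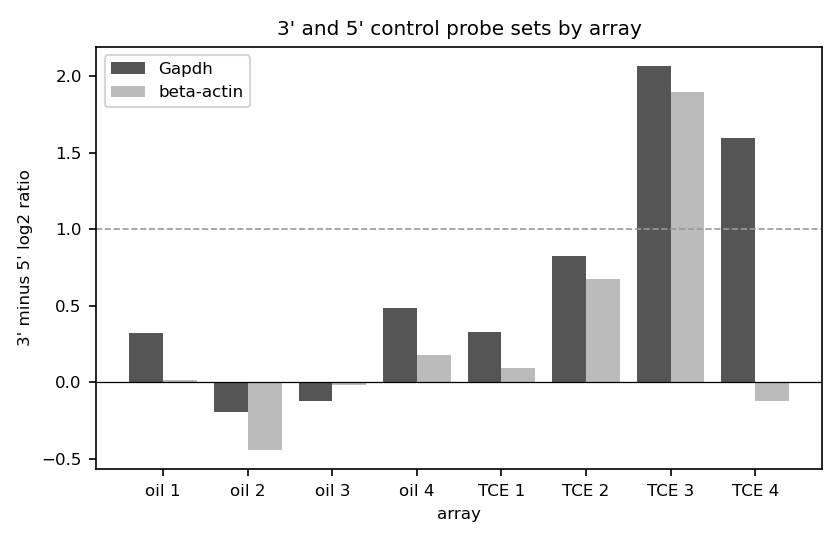
The bars give, for each of the 8 arrays (horizontal axis), the log2 ratio of the 3' control probe set minus that of the 5' control probe set for Gapdh (dark) and beta-actin (light), with a dashed line at 1. TCE 3 is above 1 for both transcripts (2.07 and 1.90) and TCE 4 for Gapdh only (1.60 against -0.12).

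After 14 days of TCE the rat liver showed more genes higher than lower, among them a glutathione transferase, a peroxisomal thiolase, an aldehyde dehydrogenase and malic enzyme. Of 8740 probe sets 246 passed limma adjusted p under 0.05 (2.81%), of which 189 were higher and 57 lower. The values of the 8 arrays did not overlap between groups for 238 of the 246, as the choice by p largely fixes, and for 1075 of all 8740 probe sets (12.3%). Among the 4736 genes that a probe set with a single symbol names, 110 were higher (2.32%) and 30 lower (0.633%). Without TCE 3 and TCE 4, 46 genes were higher (0.971%) and 16 lower (0.338%). The median change over all genes was 0.04. Quantile normalization, which gives all arrays a common width, left 7 probe sets, all higher. The count fell to 100 without oil 1, 167 without oil 3 and 147 without oil 4. It fell to 164 without TCE 1, 120 without TCE 2 and 154 without TCE 4. It rose to 316 without oil 2 and 294 without TCE 3.

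Gsta3, an alpha-class glutathione S-transferase that joins glutathione to electrophiles, had the smallest p of all genes. Its values were -0.17, 0.36, 0.15 and -0.44 on the oil arrays and 3.54, 3.69, 4.08 and 3.32 on the TCE arrays. The groups lay far apart, and TCE 3 was the highest. The change was 3.68 ± 0.25 (log2 change ± SE, n = 4 and 4), 12.8-fold, with an adjusted p of 2.65e-06 (limma). All 3 of its probe sets passed, with changes of 3.68 to 4.02, although the one given here can also bind related alpha-class transcripts. Gsta3 kept its call under every alternative run, including quantile normalization (3.23, limma adjusted p = 1.91e-05).

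Acaa1b encodes the peroxisomal 3-ketoacyl-CoA thiolase, which cuts the shortened acyl chain in the last step of peroxisomal oxidation. It read 0.19, -0.44, -0.22 and 0.65 on oil and 2.80, 3.44, 3.63 and 3.78 on TCE, with no overlap and TCE 1 the lowest of the treated arrays. It rose by 3.37 ± 0.30, 10.3-fold (limma adjusted p = 3.48e-05).

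Aldh1a1, a cytosolic aldehyde dehydrogenase that makes retinoic acid, read -0.07, 0.07, 0.42 and -0.29 on oil and 2.94, 2.67, 3.24 and 2.38 on TCE. The groups were far apart and the change was 2.78 ± 0.28 (limma adjusted p = 0.000186). Me1, the cytosolic malic enzyme that supplies NADPH, read -0.66, -0.13, 0.14 and 0.12 on oil and 2.61, 2.50, 2.70 and 2.73 on TCE. The treated arrays were nearly level, and 4 of its 5 probe sets passed. The change was 2.77 ± 0.34 (limma adjusted p = 0.000685). Acaa1b, Aldh1a1, Me1 and Gsta3 all kept their calls whichever of the 8 arrays was left out, and Acaa1b (2.88) and Aldh1a1 (2.25) also passed with quantile normalization.

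Fam111a, which encodes a nuclear protease that acts at DNA replication forks, had the largest change but a wide spread on oil. It read -1.06, 1.42, 0.60 and -1.25 on oil and 6.43, 5.70, 5.27 and 5.25 on TCE. The change was 5.73 ± 0.996 (limma adjusted p = 0.0085), from 1 probe set. Other large rises were those of Prps2, a phosphoribosyl pyrophosphate synthetase of nucleotide synthesis (2.94 ± 0.59), Hspa13, an Hsp70 family protein of microsomes (2.86 ± 0.52), Zfp455, a zinc finger gene (2.41 ± 0.35), and Dact2, a regulator of WNT signalling (2.03 ± 0.38). Hdc, histidine decarboxylase, passed with a change of 2.65, but its highest oil value of 1.57 nearly reached its lowest TCE value of 1.60. Klf6, an early-response transcription factor, rose by 2.13 ± 0.51. Prps2 lost its call without oil 4 (limma adjusted p = 0.0523), Hdc without any 1 array other than oil 4 or TCE 3 (adjusted p up to 0.131 without TCE 2) and Klf6 without any 1 array other than oil 2 (adjusted p up to 0.12 without oil 1).

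Falls were fewer, and several were largest on TCE 3. Plg, the precursor of plasmin that hepatocytes secrete, read -0.01, 0.24, 0.01 and -0.24 on oil and -1.50, -3.01, -4.87 and -2.85 on TCE. No arrays overlapped, and the treated arrays ranged over more than 3 with TCE 3 the lowest. The change was -3.06 ± 0.64 (limma adjusted p = 0.0196), -2.26 without the arrays of high Gapdh value (adjusted p = 0.0249) and -1.70 with the Gapdh value as a covariate (adjusted p = 0.0414). Plg lost its call without oil 1 (adjusted p = 0.0561) and without TCE 2. Akt2, a kinase of insulin signalling, read -0.74, -1.41, -3.25 and -1.59 on TCE, again lowest on TCE 3. Its change was -1.72 ± 0.43 (limma adjusted p = 0.0484), but -0.90 with the covariate (adjusted p = 0.21), and the call was lost without any 1 array other than TCE 1 (adjusted p up to 0.12 without oil 1).

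Cirbp, a cold-inducible RNA-binding protein whose transcript follows the daily cycle of body temperature, read 0.00, 0.44, -0.22 and 0.00 on oil and -2.06, -2.10, -1.97 and -1.04 on TCE. It fell by 1.85 ± 0.27 (limma adjusted p = 0.00315), and by 2.14 without TCE 3 and TCE 4. Cdk5, a cyclin-dependent kinase best known from neurons, read -1.88, -2.59, -2.62 and -3.59 on TCE against -0.43 to 0.29 on oil and fell by 2.62 ± 0.44 (limma adjusted p = 0.00744). Both kept their calls whichever array was left out.

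Further falls were Lrrc8a, a subunit of the volume-regulated anion channel (-2.76 ± 0.60), the developmental transcription factors Msx1 (-2.22 ± 0.45) and Neurog1 (-2.13 ± 0.40), and Slc6a9, a glycine transporter (-1.17 ± 0.26). Cgm4, of the carcinoembryonic antigen family (-1.58 ± 0.37), and Tnfrsf1b, a tumour necrosis factor receptor (-1.16 ± 0.25), belong here too. Brightness cannot be read from ratios, and whether Msx1 and Neurog1 were above background in liver is not known from these values. Of these 6, Msx1 and Neurog1 kept their calls whichever 1 array was left out. Msx1 was lowest on TCE 3 (-3.46), and without TCE 3 and TCE 4 it changed by -1.52 and did not pass (limma adjusted p = 0.0894), nor with the Gapdh covariate (-1.56, adjusted p = 0.115). Neurog1 passed without those arrays (-2.32, adjusted p = 0.0443) but not with the covariate (adjusted p = 0.0754). Lrrc8a lost it without oil 3, TCE 1 or TCE 2, Tnfrsf1b without oil 1, oil 4, TCE 1 or TCE 2, Cgm4 without oil 1, oil 2, oil 3, TCE 2 or TCE 4, and Slc6a9 without oil 1, oil 3, oil 4, TCE 2 or TCE 3. The highest adjusted p among these was 0.106, for Cgm4 without TCE 2. The second probe set of Cgm4 had a change of 0.64, opposite in sign, and that of Tnfrsf1b one of -0.03.

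**Figure D2:**
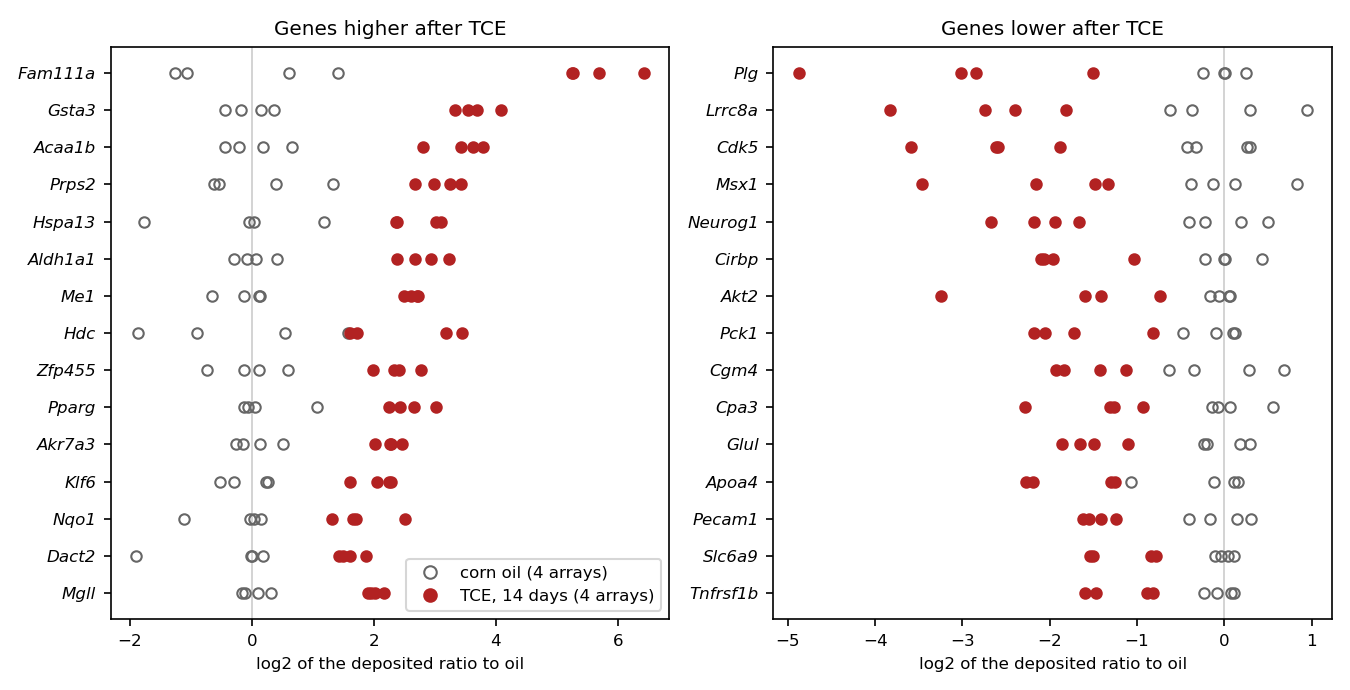
Each point is the log2 ratio (horizontal axis) of a gene on 1 array, open for the 4 corn oil arrays and filled for the 4 TCE arrays, for the 15 largest rises (left) and the 15 largest falls (right). Filled points clear the open ones in every row because the genes were chosen for that. The gap is widest for Fam111a and Gsta3, and narrow for Hdc (1.57 against 1.60) and Apoa4 (-1.07 against -1.25).

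Some genes of fatty acid oxidation rose in each of 3 lists, peroxisomal, mitochondrial and microsomal. Of 19 peroxisomal genes 4 rose and none fell, where 2.32% of all genes rose, and the list's median change was 0.39 beside 0.04 over all genes. The 4 were Acaa1b, Pex11a, Ech1 and Ehhadh. Pex11a, which makes peroxisomes elongate and divide, read 0.71, 0.06, -0.06 and -0.06 on oil and 2.02, 1.85, 1.96 and 2.32 on TCE. It rose by 1.88 ± 0.20 (limma adjusted p = 0.00023) and was clear of every oil array, but its second probe set had a change of 0.08. Ech1, an isomerase for unsaturated acyl chains, rose by 1.75 ± 0.29, from 0.99 on TCE 1 and 1.84 to 2.15 on the other treated arrays. Ehhadh, the bifunctional hydratase and dehydrogenase, read 1.44, 1.88, 1.61 and 0.99 on TCE and rose by 1.48 ± 0.31 (limma adjusted p = 0.0186).

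The other 15 peroxisomal genes ranged from -2.39 to 0.91 and did not pass. The list's median per array was 0.17 to 0.65 on TCE and -0.09 to 0.09 on oil, without overlap. Medians of other lists did not overlap either, such as coagulation and fibrinolysis (-0.18 to -0.08 on TCE, -0.05 to 0.03 on oil). Of all single probe sets 12.3% did not overlap. Without TCE 3 and TCE 4, 2 of the 19 passed, Acaa1b (3.07) and Pex11a (1.77), against 0.971% of all genes, while Ech1 was at 1.47 and Ehhadh at 1.66. Ehhadh also lost its call without oil 1, oil 4 or TCE 2 (adjusted p up to 0.0654).

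Mitochondrial fatty acid oxidation and ketogenesis had 3 of 23 genes higher and none lower, where 2.32% of all genes rose. The list's median was 0.16 beside 0.04 over all genes. Eci1, which moves double bonds so that unsaturated chains can be oxidized, read 0.23, -0.12, 0.11 and -0.21 on oil and 1.29, 1.74, 1.79 and 1.83 on TCE. It rose by 1.66 ± 0.21 (limma adjusted p = 0.000711) with TCE 1 the lowest treated array. Cpt2, which hands acyl chains back to coenzyme A inside mitochondria, had TCE values of 1.16 to 1.39 and rose by 1.28 ± 0.21. Decr1, a reductase for unsaturated acyl chains, rose by 1.11 ± 0.25 and lost its call without oil 1, oil 3, oil 4, TCE 2 or TCE 4 (adjusted p up to 0.0899 without oil 1). Eci1 and Cpt2 passed without TCE 3 and TCE 4 too, at 1.51 and 1.24.

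Microsomal omega-oxidation and acyl-CoA thioesterase genes moved in both directions. Of 6 genes 2 rose and 1 fell, where 2.32% of all genes rose and 0.633% fell. The list's median was 1.10, and it was 1.17 without TCE 3 and TCE 4. None passed without those arrays, where 0.971% of all genes were higher and 0.338% lower. Cyp4a1, a fatty acid omega-hydroxylase, read -0.18, 0.41, -0.16 and 0.15 on oil and 1.01, 1.70, 0.93 and 1.72 on TCE. It rose by 1.29 ± 0.28 (limma adjusted p = 0.0234), all 3 of its probe sets passed (1.29 to 1.84), and the call was lost without oil 1, oil 3, oil 4, TCE 2 or TCE 4 (adjusted p up to 0.0779 without TCE 2). The probe set given here can also bind related transcripts. Its relative Cyp4a8 fell by 1.06 ± 0.26, with TCE values of -1.20 to -0.69, and lost the call without any 1 array other than oil 1 or TCE 1 (adjusted p up to 0.114 without TCE 2).

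Aldh3a2, which oxidizes fatty aldehydes, read 0.95, 0.96, 1.01 and 0.83 on TCE and rose by 1.02 ± 0.20 (limma adjusted p = 0.0157). Its other probe sets changed by 0.01 and -2.16 without passing, so the mean of the 3 gave -0.38 and turned the direction.

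Genes of lipid uptake, storage and fuel switching had 4 of 24 members higher and none lower, where 2.32% of all genes rose. The list's median was 0.10 beside 0.04 over all genes. Mgll, the lipase that finishes the breakdown of stored triglyceride, read -0.11, 0.32, 0.10 and -0.15 on oil and 1.90, 2.17, 2.02 and 1.95 on TCE. Its treated arrays were nearly level, and it rose by 1.97 ± 0.22 (limma adjusted p = 0.000414). Cd36, a fatty acid translocase, read -0.02, 1.37, 0.02 and -0.11 on oil and 4.03, 3.97, 0.99 and 3.32 on TCE. TCE 3 fell below oil 2, so the groups overlapped, and the change was 2.76 ± 0.54 (limma adjusted p = 0.0145). Without TCE 3 and TCE 4 the change of Cd36 was 3.69 (adjusted p = 0.00156). The Cd36 call was lost without oil 1 (adjusted p = 0.0522) or TCE 2, and a second probe set had a change of 0.24.

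The acyl-CoA synthetases Acsl4 and Acsl1, which activate fatty acids, rose by 1.33 ± 0.22 and 0.71 ± 0.16. Acsl1 lost its call without oil 1, oil 4, TCE 1 or TCE 4 (adjusted p up to 0.0869 without TCE 4). Another of its 4 probe sets passed at 1.25, and the remaining ones changed by 0.31 and -0.07 without passing. The mean of the 4 gave 0.55 (limma adjusted p = 0.0834). Pparg, the PPAR family member best known from fat cells, read 0.05, 1.08, -0.05 and -0.13 on oil and 2.24, 2.66, 2.43 and 3.01 on TCE. It rose by 2.35 ± 0.55 (limma adjusted p = 0.0339), a call lost without any 1 array other than oil 2 or TCE 3 (adjusted p up to 0.092 without oil 1). Ppara, which encodes PPARα, had a change of 0.42 that did not pass (limma adjusted p = 0.437).

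Calls among genes of lipid synthesis and export were few, as the shares over all genes would also give (2.32% higher and 0.633% lower). The counts therefore tell little about these lists. Of 10 fatty acid synthesis genes Me1 alone passed, and the list's median was -0.20. None of 15 cholesterol synthesis genes passed in either direction, with changes of -0.67 to 0.53 and a median of -0.29. Among 14 apolipoprotein and lipoprotein receptor genes Apoa4, an apolipoprotein of intestine and liver, was the 1 that fell. It read 0.11, 0.16, -1.07 and -0.12 on oil and -1.25, -2.27, -2.19 and -1.29 on TCE, a change of -1.52 ± 0.32 (limma adjusted p = 0.02). The gap between groups was narrow, from -1.07 on oil 3 to -1.25 on TCE 1, and the call was lost without oil 1, oil 4 or TCE 2 (adjusted p up to 0.0697). None of 16 bile acid genes passed (median -0.12).

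Some NRF2 target genes rose. Of 15 measured, 4 rose and none fell, where 2.32% of all genes rose. In the list 14 had changes above 0, and the median was 0.65 beside 0.04 over all genes. The list's median per array was 0.47 to 0.84 on TCE and -0.08 to 0.13 on oil. Akr7a3, which reduces aflatoxin dialdehyde, read -0.14, 0.13, -0.26 and 0.51 on oil and 2.02, 2.27, 2.46 and 2.28 on TCE. It rose by 2.20 ± 0.24 (limma adjusted p = 0.000279) and kept its call whichever array was left out.

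Nqo1, a quinone reductase, read -0.03, 0.16, 0.03 and -1.11 on oil and 1.70, 1.66, 2.52 and 1.31 on TCE. Oil 4 stood low and TCE 3 high, and the change was 2.04 ± 0.47 (limma adjusted p = 0.0324). The call was lost without any 1 array other than oil 2 or TCE 4 (adjusted p up to 0.0874 without oil 4), and the second Nqo1 probe set had a change of -0.90. Gclm, the modifier subunit of the enzyme that starts glutathione synthesis, read 2.03, 1.75, 1.12 and 2.08 on TCE, lowest on TCE 3, and rose by 1.68 ± 0.33. Gclm lost its call without oil 1 (adjusted p = 0.0523). Me1 is the fourth member that rose. The count of members higher was 5 without TCE 3 and TCE 4, where 0.971% of all genes were higher. It was 2 with the Gapdh covariate and 0 with quantile normalization, none being lower in any of these. Of all 8740 probe sets, 58 were higher with the covariate and 7 with quantile normalization, so the 0 tells little about this list. Nqo1 was not among the 5 that were higher without TCE 3 and TCE 4 (1.92, limma adjusted p = 0.128). Nfe2l2, the gene of NRF2 itself, had a change of 1.14 that did not pass (limma adjusted p = 0.0828).

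Enzymes that act on TCE and its metabolites showed 1 rise and 1 fall among 17 genes, with a median of 0.10. Over all genes 2.32% rose and 0.633% fell. The rise in the list was Aldh1a1. Gstt2, a theta-class glutathione transferase, read -0.40, 0.03, -0.03 and 0.22 on oil and -1.28, -1.06, -1.20 and -1.15 on TCE and fell by 1.13 ± 0.20 (limma adjusted p = 0.00985). Gstt2 kept its call whichever 1 array was left out but not without TCE 3 and TCE 4 (-1.12, limma adjusted p = 0.064), and its second probe set had a change of 0.13. Cyp2e1 had a change of 0.20 that did not pass (limma adjusted p = 0.482). In the list of 15 glutathione S-transferases Gsta3 rose, Gstt2 fell and the median was 0.05. Of 20 genes that respond to the xenobiotic receptors CAR, PXR and AHR, Aldh1a1 alone passed (median 0.25). None of 14 catalase, dismutase and peroxidase genes passed, and neither did any of 18 glucuronosyl-, sulfo- and methyltransferase genes.

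**Figure D3:**
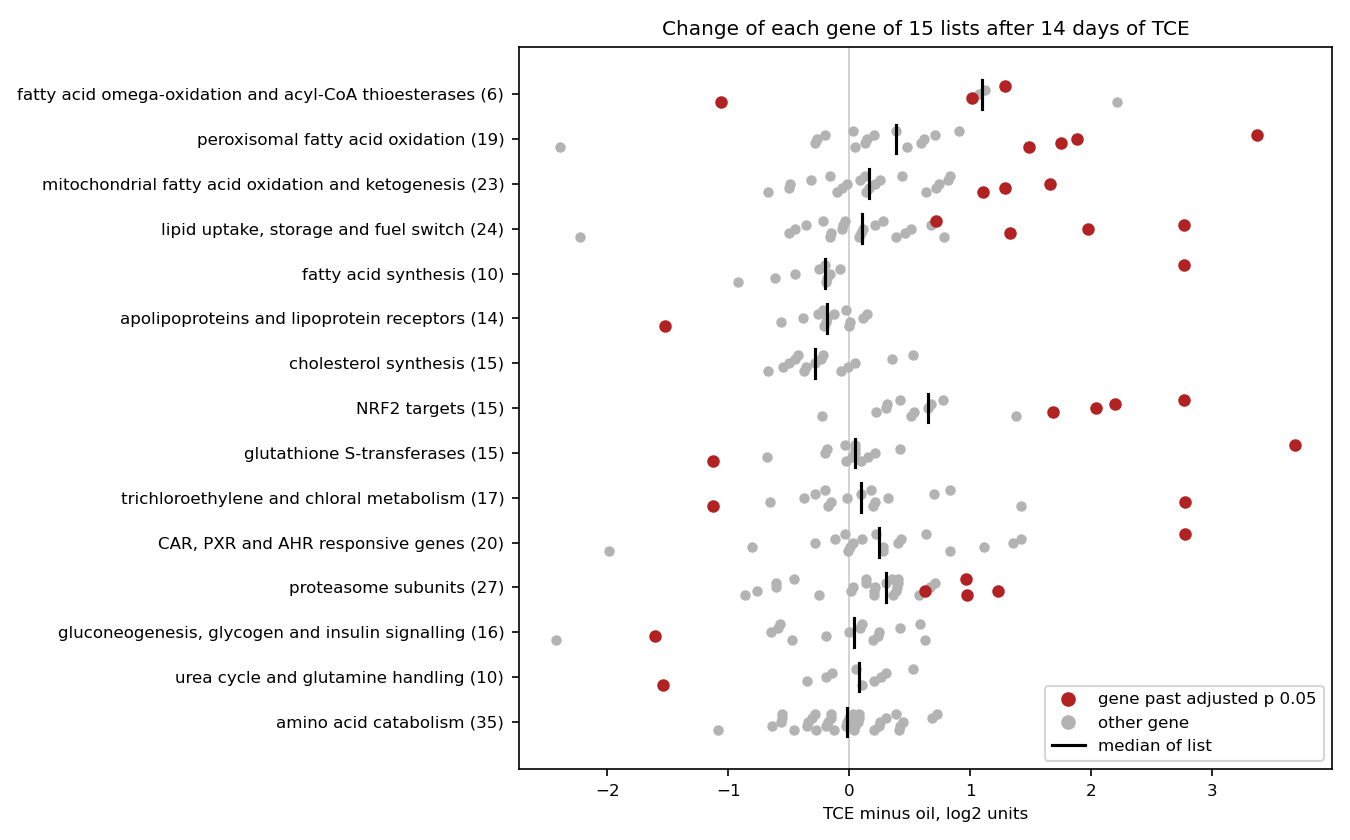
Each point is the change (TCE minus oil, log2 units, horizontal axis) of 1 gene in 15 of the gene lists, with the number of measured genes in brackets, red where the gene passed adjusted p 0.05; the bar is the list's median. Medians stand furthest right for omega-oxidation (1.10) and NRF2 targets (0.65), and cholesterol synthesis lies left of 0 with no gene passing.

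A few proteasome subunits rose, by small amounts. Of 27 genes 4 rose and none fell, where 2.32% of all genes rose. In the list 21 had changes above 0, and the median was 0.30 beside 0.04 over all genes. Psmd1, a scaffold of the regulatory particle, read 1.27, 1.45, 1.11 and 1.11 on TCE against -0.07 to 0.12 on oil, a rise of 1.23 ± 0.21 (limma adjusted p = 0.00744). The core subunits Psma1, Psma2 and Psma4 rose by 0.98 ± 0.20, 0.96 ± 0.18 and 0.63 ± 0.15. Psma1 lost its call without oil 1 or TCE 2, and Psma4 whichever array was left out (adjusted p up to 0.106 without oil 1). The second Psma1 probe set had a change of -0.33, opposite in sign, and the mean of both gave 0.32 (limma adjusted p = 0.595), while the mean over the 3 Psma2 probe sets gave 0.66 (adjusted p = 0.116). The list's median per array was 0.17 to 0.65 on TCE, highest on TCE 3. Without TCE 3 and TCE 4 Psmd1 alone passed, where 0.971% of all genes were higher, and the list's median was 0.23.

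In nitrogen and glucose metabolism Glul and Pck1 fell, where 0.633% of all genes fell. Glul, glutamine synthetase, which in liver marks the hepatocytes around the central vein, read -0.23, 0.29, -0.20 and 0.18 on oil and -1.49, -1.65, -1.10 and -1.86 on TCE. It fell by 1.54 ± 0.24 (limma adjusted p = 0.00563) with no overlap, and 3 of its 4 probe sets passed, all 4 being lower (-2.17 to -0.90). Glul kept its call whichever array was left out and without TCE 3 and TCE 4. It was the 1 gene of 10 in the urea cycle and glutamine list that passed, and the list's median was 0.08.

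Pck1, the rate-limiting enzyme of gluconeogenesis, read -0.10, 0.09, 0.12 and -0.48 on oil and -0.82, -2.06, -2.18 and -1.72 on TCE. The change was -1.61 ± 0.33 (limma adjusted p = 0.0185), a call lost without oil 1 or TCE 2 (adjusted p up to 0.0623). No other gene of its list of 16 passed, although 6 had an unadjusted p under 0.05, and changes ran from -2.42 to 0.62 (median 0.04). None of 35 amino acid catabolism genes, 14 citric acid cycle genes, 54 respiratory chain genes or 13 glycolysis genes passed. The list medians were -0.02, 0.37, 0.16 and 0.00, and over all genes 2.32% rose and 0.633% fell. Without TCE 3 and TCE 4, where 0.338% of all genes were lower, 1 glycolysis gene was lower, Aldoa, an aldolase, at -1.51 (adjusted p = 0.00472). On all 8 arrays Aldoa changed by -1.95 and did not pass (adjusted p = 0.0577), with -3.18 on TCE 3 and -1.63 to -1.53 on the other treated arrays.

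For the lists of secreted plasma proteins and stress, few or no calls are what the shares over all genes would give (2.32% higher and 0.633% lower). These counts therefore tell little about the lists. Plg was the 1 gene that fell among 20 coagulation and fibrinolysis genes, whose median was -0.11. None of 17 complement genes, 30 acute phase proteins, 19 heat shock chaperones, 19 endoplasmic reticulum chaperone genes or 19 interferon and antigen presentation genes passed. Among them Pdia3, a disulfide isomerase, had a change of -0.97 (limma adjusted p = 0.0524), and Stip1, a co-chaperone of Hsp70 and Hsp90, had -1.58 (adjusted p = 0.08). Mdm2, a p53 target and inhibitor, rose by 0.85 ± 0.20 as the 1 of 20 DNA damage and cell death genes. Ccnd2, a G1 cyclin, rose by 1.17 ± 0.28 as the 1 of 27 cell cycle genes, reaching 2.04 on TCE 2 and 1.11 to 1.14 on the other treated arrays. Mdm2 lost its call without any 1 array other than oil 2 or oil 3 and Ccnd2 without any 1 other than oil 2 or TCE 3 (adjusted p up to 0.12 and 0.116, each without oil 1). The second Ccnd2 probe set had a change of -0.22, opposite in sign, and the mean of both gave 0.47 (limma adjusted p = 0.36). The other Mdm2 probe sets changed by 0.24, 0.68 and 0.50 without passing, and the mean of all gave 0.57 (limma adjusted p = 0.174).

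Markers of other liver cell types were looked at by the same test, and fewer cells of a type cannot be told apart from less RNA per cell. None of 11 Kupffer cell and macrophage markers passed, and the list's median per array was -0.51 to 0.03 on TCE and -0.11 to 0.30 on oil. None of 17 lymphocyte and neutrophil markers passed, with list medians of -0.44 to -0.13 on TCE and -0.16 to 0.11 on oil. Of 15 endothelial markers 1 rose and 1 fell, where 2.32% of all genes rose and 0.633% fell. Pecam1, an adhesion molecule of endothelium, read -1.24, -1.62, -1.41 and -1.55 on TCE against -0.40 to 0.30 on oil and fell by 1.43 ± 0.26 (limma adjusted p = 0.00991). Lyve1, a hyaluronan receptor of sinusoidal endothelium, rose by 1.13 ± 0.22 (limma adjusted p = 0.0127). Sparc, a matrix protein of stellate cells, was the 1 of 25 stellate and matrix markers that rose, by 1.21 ± 0.25. Sparc lost its call without TCE 2 (adjusted p = 0.0504) and without TCE 3 and TCE 4 (limma adjusted p = 0.0721). Its other probe sets changed by 0.28, 0.96 and 0.25 without passing, and the mean of all gave 0.68 (limma adjusted p = 0.114). Cpa3, a mast cell protease that is in none of the lists, read -2.28, -0.93, -1.31 and -1.27 on TCE and fell by 1.55 ± 0.30 (limma adjusted p = 0.0127). No marker of cholangiocytes, exocrine pancreas, erythroid cells or adipocytes and muscle passed.

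The single-dose rats, with oil arrays of their own, show which of these changes were there after 1 dose. After a single dose 150 probe sets passed (1.72%), 106 higher and 44 lower. The calls of both schedules shared 61 probe sets, 24.8% of the repeated-dose calls and 40.7% of the single-dose calls, and all 61 had the same direction. Of the 110 genes that rose after 14 days, 105 had a single-dose change above 0 (95.5%, against 59.9% of all genes with the same sign in both schedules), with a median of 0.71 beside 1.17 after 14 days. Of the 30 that fell, 25 had a single-dose change below 0. The genes were chosen for their 14-day change, so their larger 14-day values are partly a matter of selection.

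The test of the schedule difference itself passed no probe set (0%, smallest limma adjusted p = 0.127), while 818 of 8740 (9.36%) had an unadjusted p under 0.05. Other settings of the limma fit gave 0 to 6, with 6 on the log2(ratio + 1) scale. Values of both schedules for the genes above therefore stand side by side without a call. Acaa1b changed by 1.15 after 1 dose and 3.37 after 14 days (unadjusted p of the difference 9.52e-05, adjusted p = 0.221). Its single-dose TCE arrays read 1.15, 0.90, 0.79 and 1.43, all below the lowest 14-day value of 2.80. Gsta3 changed by 2.29 and 3.68, with single-dose TCE arrays at 2.21, 2.40, 2.79 and 2.04.

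Among genes of fatty acid oxidation, Ehhadh changed by 0.00 after 1 dose and 1.48 after 14 days, Decr1 by 0.00 and 1.11, and Cpt2 by 0.15 and 1.28. Eci1, at 0.41 and 1.66, and Pex11a, at 0.79 ± 0.20 (limma adjusted p = 0.0608) and 1.88, stood higher after 1 dose than these. Of the lipid and NADPH genes, Mgll changed by 0.62 and 1.97, and Me1 by 0.95 and 2.77. Pparg and Msx1 had opposite signs, at -0.96 ± 0.55 and 2.35 and at 0.69 ± 0.45 and -2.22. Neither single-dose change passed (limma adjusted p = 0.354 and 0.423), so a reversal is not shown. Others were alike on both schedules: Hspa13 changed by 2.98 and 2.86, Akr7a3 by 1.95 and 2.20, Glul by -1.21 and -1.54, Pck1 by -1.40 and -1.61, and Psma2 by 0.98 and 0.96.

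**Figure D4:**
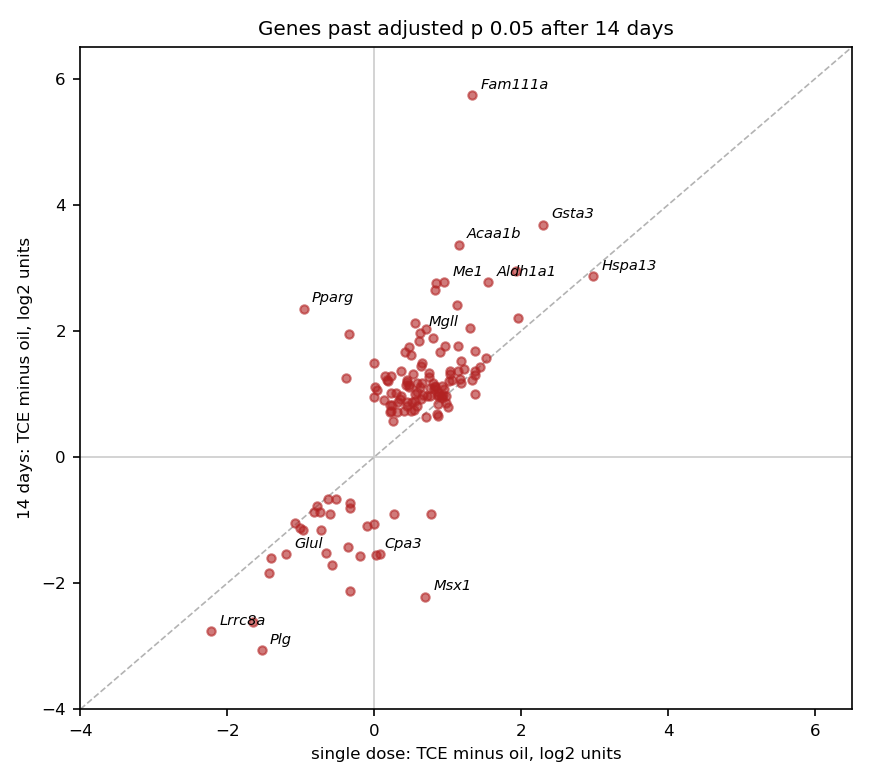
Each point is 1 of the 140 genes past adjusted p 0.05 after 14 days, with its single-dose change (horizontal axis) and its 14-day change (vertical axis) in log2 units; the dashed line marks equal changes. Most points lie in the quadrants of the same sign, Acaa1b (1.15 and 3.37) and Fam111a (1.33 and 5.73) lie above the line and Hspa13 (2.98 and 2.86) on it; the empty band around 0 on the vertical axis comes from the choice of genes.

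The species comparison set the 14-day rat change against the 14-day mouse change, each from its own oil arrays, in 3054 genes with the same symbol on both arrays. The rat change was above the mouse change in 260 genes (8.51%) and below it in 61 (2%) at limma adjusted p under 0.05. The scales of the arrays enter this split: the median of rat minus mouse over all genes was 0.23, and after centring each array on its median it was 0.03 with 135 genes above and 88 below. Quantile normalization left 2 above and 4 below.

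Gsta3, Aldh1a1, Acaa1b, Me1 and Pex11a changed more in rat than in mouse, while the differences of Ehhadh, Aldh3a2 and Cpt2 did not pass. Gsta3 changed by 3.68 in rat and -0.43 in mouse (difference 4.11 ± 0.34, limma adjusted p = 7.67e-09), and its 4 mouse TCE arrays read -0.76, -0.19, -0.01 and -0.15. Aldh1a1 changed by 2.78 and -0.07 (difference 2.84 ± 0.32, adjusted p = 2.83e-06). Acaa1b rose in both species, by 3.37 in rat and 1.02 in mouse (difference 2.35 ± 0.33, adjusted p = 5.47e-05), Me1 changed by 2.77 and 0.86 and Pex11a by 1.88 and 0.79. Without the arrays of high Gapdh value the differences of Me1 and Pex11a did not pass (limma adjusted p = 0.224 and 0.122), nor did they with quantile normalization (adjusted p = 0.404 and 0.647). That of Acaa1b passed without those arrays (adjusted p = 0.029) but not with quantile normalization (adjusted p = 0.0765). Ehhadh and Aldh3a2 had the larger change in mouse, at 1.48 in rat against 2.35 and 1.02 against 1.70, without passing (adjusted p = 0.107 and 0.0633). After centring, Aldh3a2 passed (adjusted p = 0.0288). Cpt2 changed by 1.28 and 0.83, a difference of 0.45 ± 0.24 that did not pass.

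Glul went in opposite directions in the 2 species. Its mouse TCE arrays read 0.86, 1.14, 0.84 and 0.92, all above the mouse oil arrays (-0.07 to 0.26), against -1.86 to -1.10 in rat. The difference was -2.43 ± 0.29 (limma adjusted p = 6.14e-06), and it passed with quantile normalization (-2.09, adjusted p = 0.00362) and without the arrays of high Gapdh value (-2.36, adjusted p = 0.00388). The mouse arrays are subject to the same Gapdh limit there.

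The largest differences above mouse were Fam111a (6.33 ± 1.13), Onecut1, a hepatocyte and biliary transcription factor (4.41 ± 1.02), Acsm2, a mitochondrial medium-chain acyl-CoA synthetase (4.13 ± 1.05), Gsta3 and Prps2 (3.59 ± 0.97). Onecut1 in rat read 4.42, 2.05, 3.07 and 4.35 on TCE and -1.78 to 1.98 on oil, a rat change of 3.67 that just missed the test (limma adjusted p = 0.05), and Acsm2 had a rat change of 2.23 (adjusted p = 0.212). The largest differences below mouse were Msx1 (-3.82 ± 0.69), Rhoa, a small GTPase of the cytoskeleton (-2.95 ± 0.96), S100g, a calcium-binding protein (-2.89 ± 0.62), Psat1, an enzyme of serine synthesis (-2.80 ± 0.67), and Plg (-2.75 ± 0.67). S100g and Psat1 changed by 3.64 and 2.96 in mouse and by 0.75 and 0.15 in rat. The rat value of Psat1 rests on the probe set chosen by its spread: its 3 other rat probe sets changed by -0.02, 0.63 and 2.45, the last with TCE values of 2.51 to 3.82 (limma adjusted p = 0.0762). The other rat probe set of S100g changed by -0.55. Rhoa read -0.56, -1.83, -6.45 and -2.25 on the rat TCE arrays, lowest on TCE 3, and its difference was -1.44 without the arrays of high Gapdh value (adjusted p = 0.141). Rhoa also lost its call without oil 1, oil 2, oil 3 or TCE 4 (adjusted p up to 0.0774). Without the arrays of high Gapdh value the differences of Onecut1 (limma adjusted p = 0.12), Acsm2 (0.0924), Prps2 (0.209), S100g (0.0809) and Plg (0.066) did not pass either, and those of Fam111a, Gsta3, Msx1 and Psat1 did. With quantile normalization Gsta3, Msx1 and Plg passed among these 10.

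**Figure D5:**
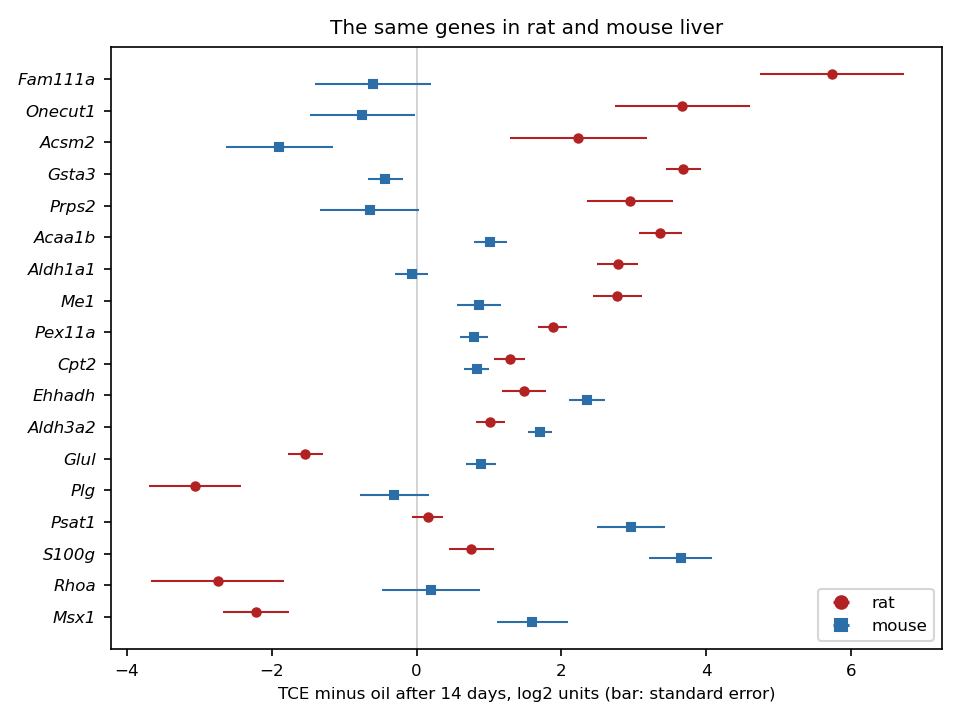
Points give the change after 14 days of TCE (TCE minus oil, log2 units, horizontal axis) in rat (red circles) and mouse (blue squares) for 18 genes, with bars of 1 standard error. Gsta3 (3.68 and -0.43) and Aldh1a1 (2.78 and -0.07) are apart, Cpt2 (1.28 and 0.83) is close, and Glul lies on opposite sides of 0 (-1.54 and 0.89).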

How the data were processed

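RNA of 32 liver samples was hybridised to Affymetrix arrays, and the submitters' processing notes name MAS5 (no version). The deposited values are a ratio: rat oil arrays of repeated dosing have a median of 1 within 5e-04 per probe set, as read from the values, and the sources used here do not describe that division. The log2 ratios were fitted by limma 3.58.1 (lmFit, eBayes) in R 4.3.3, with a mean per group over 16 rat arrays (32 for the species difference), no pseudocount and no filter. P-values were adjusted after Benjamini and Hochberg over 8740 probe sets, 59 control probe sets left out, or over 3054 shared genes, with a threshold of 0.05. The fit was tested on simulated data.

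The platform annotation gave 7006 probe sets 1 symbol, 308 several and 1426 none, and rat symbols could not be updated here. Where a gene had several probe sets, the one with the smallest within-group SD stands for it. Genes named were the 15 largest rises and falls with no overlap of arrays, up to 4 called members per list (or up to 2 others), and the 5 largest species differences each way, leaving out unnamed loci. Cyp2e1, Ppara and Nfe2l2 were added for their roles after values were seen. Members, the 51 lists and tests were chosen with earlier results of these data known. Replicate numbers did not pair the arrays (correlations of same-numbered deviations -0.04 to 0.08). Missing values (7 in the 8 arrays) touched no named gene. Figures used matplotlib.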

Additional observations from a re-analysis of the deposited data

Results flagged for a closer look

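In 12 of 122 groups of 4 values looked at, 1 array stood apart from the other 3 (a gap past Dixon's critical value, which chance gives in about 1 in 20 groups). On oil these were Pparg at 1.08, Cd36 at 1.37 and Ccnd2 at 0.84 on oil 2, Nqo1 at -1.11 on oil 4, Dact2 at -1.89 on oil 3 and Pex11a at 0.71 on oil 1. On TCE they were Cirbp at -1.04 and Acsl4 at 1.25 on TCE 4, Cyp4a8 at -0.69 and Eci1 at 1.29 on TCE 1, Ccnd2 at 2.04 on TCE 2 and Aldoa at -3.18 on TCE 3.

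Of the 18 genes whose rat and mouse changes are compared in the text, the 14-day change differed between species past the threshold for 15. The 5 largest differences each way were named by this same test, so they pass by that choice. Over all 55 named genes measured in both species it did so for 41. Most of those 55 were picked for their change in rat or their difference from mouse. Over all 3054 shared genes, 8.51% were above mouse and 2% below. Rat was above mouse for Fam111a (6.33), Onecut1 (4.41), Acsm2 (4.13), Gsta3 (4.11), Prps2 (3.59), Aldh1a1 (2.84), Acaa1b (2.35), Me1 (1.91) and Pex11a (1.08). Rat was below mouse for Msx1 (-3.82), Rhoa (-2.95), S100g (-2.89), Psat1 (-2.80), Plg (-2.75) and Glul (-2.43).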

How the results depend on the processing

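The count of probe sets changed by 14 days of TCE (246) depended on the settings, and no reason was tested. It was 7 with quantile normalization, 244 after centring, 392 on the log2(ratio + 1) scale (pseudocount 1), 106 with only the 8 arrays in the fit, 430 with array weights, 72 with the Gapdh covariate, 133 without the arrays of high Gapdh value and 526 of 5244 without the noisiest 40% of probe sets, where fewer were tested. Leaving out 1 array gave 100 to 316. With the replicate number as a replicate block it was 42; the numbers share no more than a name. The schedule difference (0) gave 6 on the log2(ratio + 1) scale, 1 with the replicate block, 1 without the arrays of high Gapdh value, 5 without the noisiest probe sets and 0 to 1 without 1 array. The species difference (321 genes) gave 6 with quantile normalization, 180 with the replicate block and 160 without the arrays of high Gapdh value, and 261 to 361 without 1 array. The Gapdh difference (1.08) was 0.80 to 1.38 without 1 array, with an exact p of 0.0286 without TCE 1. Of 52 named genes called, 27 stayed called with any array left out, 26 without the arrays of high Gapdh value, 22 with the covariate, 18 with the replicate block and 3 with quantile normalization. Of the 27, 6 did not stay called without the arrays of high Gapdh value (Aldh3a2, Dact2, Ech1, Gstt2, Msx1 and Psma2). Of 24 called genes with several probe sets, 10 stayed called with the mean of their probe sets. Every named change kept its direction under these settings except that of Aldh3a2 (-0.38 with the mean of its probe sets). Brightness over background is not in ratios and could not limit any value.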
